A study of Mus musculus with 6 samples.

Results

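The 34 genes described here form a list of endothelial identity and junction genes, chosen by gene symbol: adhesion molecules of the endothelial surface and its junctions, the angiopoietin ligands and Tie receptors, transcription factors of the SoxF and ETS families, and genes of capillary transport, vascular signalling and Notch signalling. Each symbol matched 1 of 44200 gene models in the deposited count table, and all 34 passed the filter on low counts. RNA was measured by sequencing in hearts of male C57BL/6 mice at 2 months of age (young, n = 3) and 22 months of age (old, n = 3). All mice were on normal chow and none carried a labelled mutation or treatment. The design text calls the 3 hearts of each age independent biological replicates, and the comparison asks which RNA levels differ between the ages. A separate extraction text in the labels speaks of NRVMs, which are another kind of sample, and gives no account of these hearts.

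Endothelial cells line all blood vessels and the chambers of the heart. They are joined by adherens junctions built on VE-cadherin and by tight junctions, and the receptor pair TIE2 and TIE1 tunes how firmly these junctions hold, with angiopoietin 1 as the activating ligand and angiopoietin 2 as a ligand that can oppose it. Cell identity is kept by ETS factors such as ERG and FLI1 and by the SoxF factors, and heart capillaries are specialised for taking up fatty acids. On activation by inflammatory signals, endothelial cells display ICAM-1 and VCAM-1, which leukocytes bind before they leave the blood.

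Libraries held 13673856 to 15583364 counted reads, and no pair of libraries was alike within sampling noise. Values are CPM, counts scaled to library depth with edgeR's TMM factors, and log2 fold changes are old over young ± an approximate standard error (SE). A gene passed the test when its edgeR adjusted p was under 0.05. The tissue label was met by cardiomyocyte markers, which summed to 61547 to 69202 CPM in young and 50301 to 57274 CPM in old hearts over 9 genes. The 34 genes summed to 4744, 5286 and 4634 CPM in the young and 4014, 4919 and 4539 CPM in the old libraries. Endothelial RNA was thus present at both ages, and each of the 34 genes had counts in every library.

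The junction genes Cdh5, Ptprb and Pecam1, the receptor gene Tie1 and the transcription factor gene Sox7 fell in old hearts, and the leukocyte adhesion genes Vcam1 and Icam1 rose. Of 34 genes 5 were thus lower, 2 were higher and 27 did not pass. These 7 calls are 20.6% of the list, where 15.1% of the 14413 genes tested were called. By direction, 14.7% of the list were lower against 6.36% of all genes, and 5.88% were higher against 8.72% of all genes. The list held 11 of 34 genes with an unadjusted p under 0.05 in edgeR's test. All genes tested held 4680 of 14413, a similar share. The median log2 fold change of the list was −0.088, with a range of −0.996 to 1.04, and that of all genes tested was 0.017. Positive values were found for 16 genes and negative ones for 18. In RNA of whole tissue, fewer endothelial cells and less RNA of a gene per cell cannot be told apart.

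**Figure D1:**
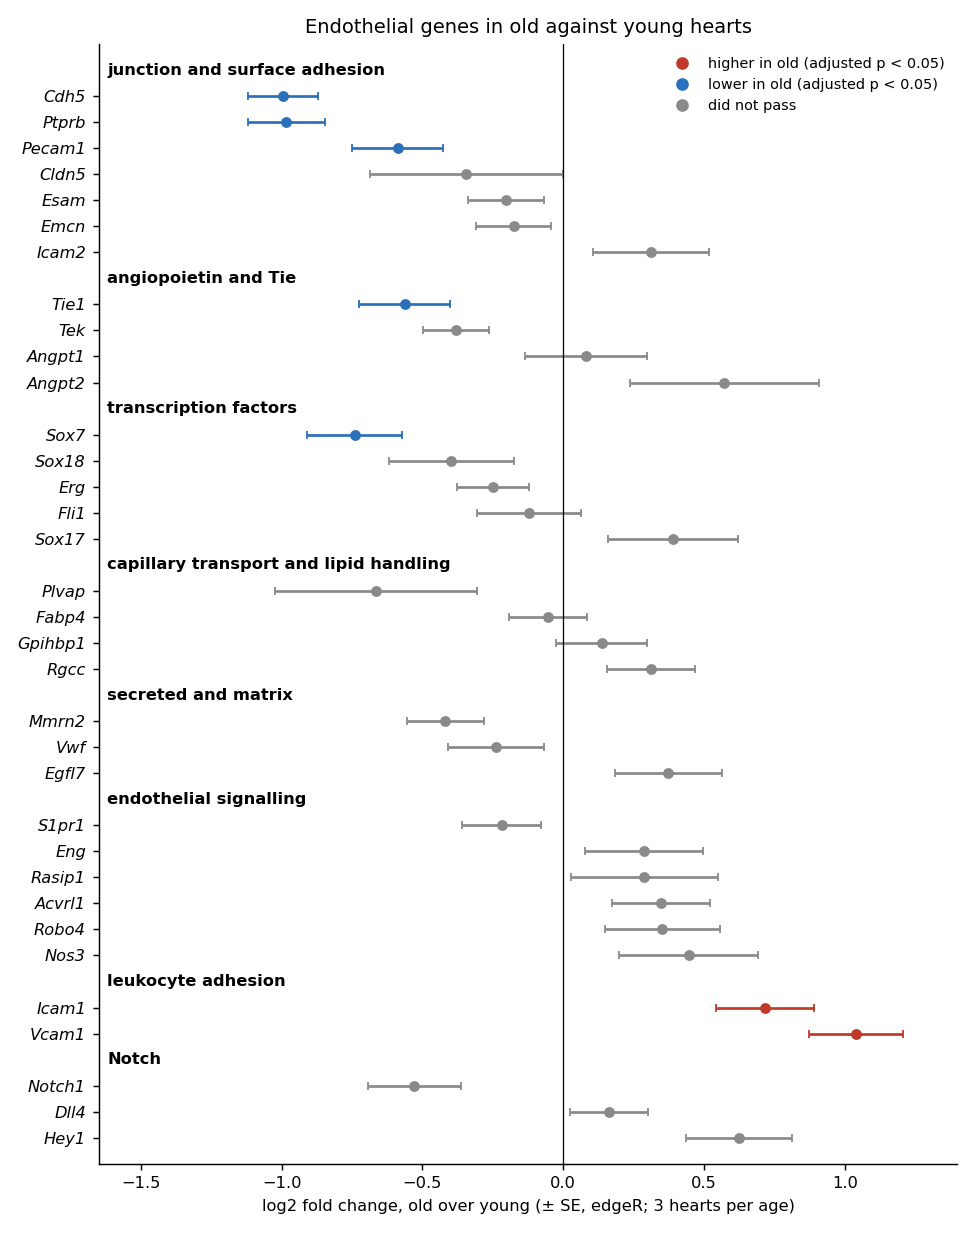
Log2 fold change of old over young hearts (x axis, ± SE from edgeR, 3 hearts per age) for each of the 34 genes, grouped by role on the y axis. Blue points (5 genes) were lower and red points (2 genes) higher at an adjusted p under 0.05. Cdh5 and Ptprb lie near −1, Vcam1 near 1, and the genes of endothelial signalling lie mostly to the right of 0 without passing.

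The old libraries lay entirely above or below the young ones for 13 genes of the list (38.2%), close to the 37.3% of all genes tested. Above the young range were Icam1, Vcam1 and Hey1, against 18.8% of all genes. Below it were 10 genes, namely Cdh5, Pecam1, Esam, Ptprb, Tek, Tie1, Sox7, Erg, Mmrn2 and Notch1, against 18.4% of all genes. Old hearts varied more than young ones. The median SD of log2 CPM over the 34 genes was 0.130 for the young and 0.265 for the old, and that over all genes tested was 0.138 and 0.279. For 24 of the 34 genes the SD was larger in old hearts.

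Levels can be compared between genes only per gene length, for which the authors' FPKM values (fragments scaled by gene length and library depth) were used. Fabp4 was the most abundant of the 34 genes at both ages, at an FPKM of 298 ± 40.3 in young and 286 ± 10.4 in old hearts. Rgcc followed at 109 ± 7.45 in young and 135 ± 23.5 in old hearts. In young hearts Cdh5 was the third at 85.5 ± 5.50, next to Gpihbp1 at 78.6 ± 15.8 and Eng at 73.0 ± 4.50, and the SDs of Cdh5 and Gpihbp1 and of Gpihbp1 and Eng overlap. In old hearts Cdh5 was the eighth, at 42.7 ± 0.63, behind Eng (88.9 ± 27.8), Gpihbp1 (86.1 ± 6.80), Egfl7 (81.4 ± 20.3), Cldn5 (54.9 ± 31.6) and Esam (43.8 ± 4.97). Neither Esam nor Cldn5 differed from Cdh5 beyond its own spread, so the order of these 3 genes in old hearts is not settled. At the low end stood the secreted ligands Angpt1, at 1.91 ± 0.445 in young and 2.01 ± 0.267 in old hearts, and Angpt2, at 1.005 ± 0.269 in young and 1.497 ± 0.665 in old hearts.

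**Figure D2:**
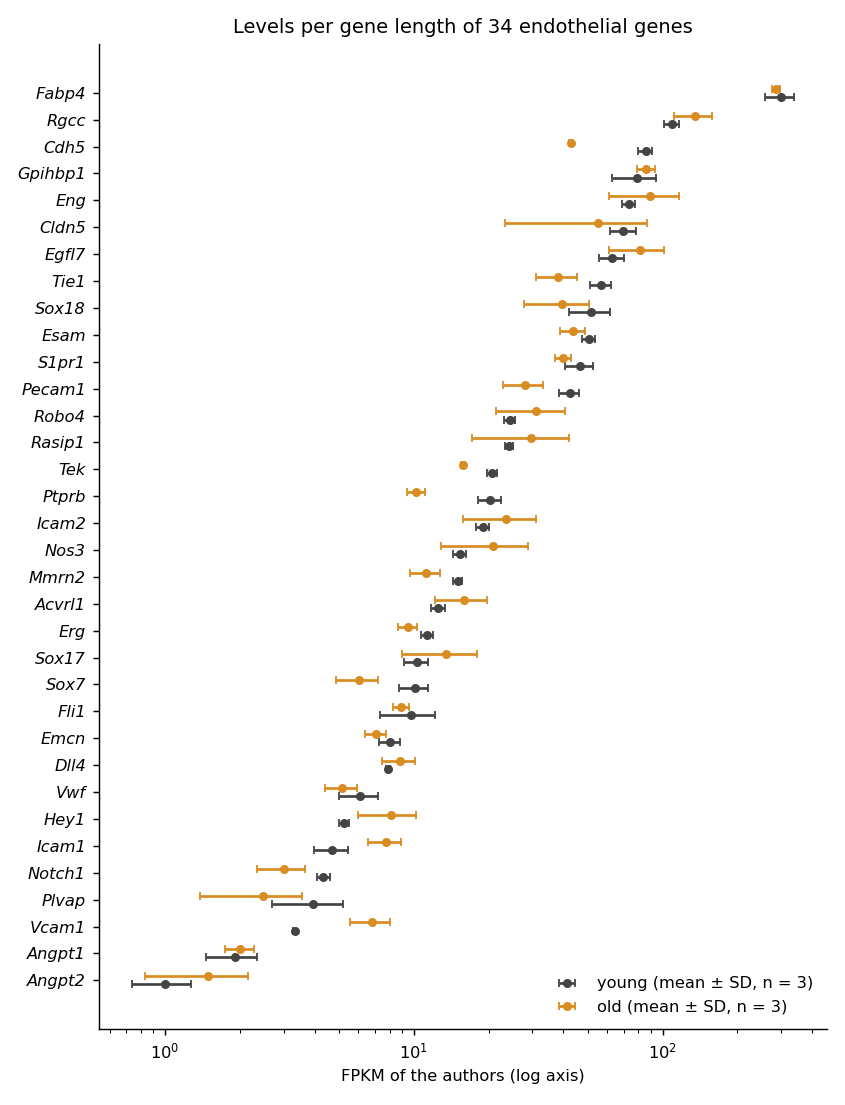
Level per gene length (FPKM of the authors, log axis) of the 34 genes in young (black) and old (orange) hearts, as mean ± SD over 3 hearts, in order of the young mean. Fabp4 and Rgcc are at the top and Angpt1 and Angpt2 at the bottom at both ages, and error bars are wide in old hearts for Cldn5, Nos3, Rasip1 and Eng.

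Junction and surface adhesion genes contained 3 of the 5 genes that fell. Cdh5 (ENSMUSG00000031871, chr8:104101625-104144511, GRCm38) encodes VE-cadherin, the adhesion molecule of endothelial adherens junctions. It measured 347, 379.5 and 339 CPM in young 1 to 3 and 177, 177 and 180.3 CPM in old 1 to 3. All old hearts were at the same low level and far from every young heart. The mean fell from 355 ± 21.6 to 178 ± 1.93 CPM (SD, n = 3 per age), a 49.8% decrease by the fitted log2 fold change of −0.996 ± 0.12 (edgeR adjusted p = 0.00235). Ptprb (ENSMUSG00000020154, chr10:116275523-116389535), which encodes the phosphatase VE-PTP that binds VE-cadherin and TIE2, measured 240.2, 281 and 235 CPM in young and 140.5, 122 and 119.9 CPM in old hearts. The ages were again far apart, with a log2 fold change of −0.98 ± 0.14 (edgeR adjusted p = 0.00339). Cdh5 and Ptprb kept their calls in all 20 alternative analyses, with adjusted p values of at most 0.0228 and 0.0274.

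Pecam1 (ENSMUSG00000020717, chr11:106654217-106750628), whose protein PECAM-1 (CD31) holds endothelial cells together at their borders, measured 256, 303 and 265 CPM in young and 223, 159 and 166 CPM in old hearts. Old 1 stood nearest to the young range and the ages did not overlap. The log2 fold change was −0.59 ± 0.16 (edgeR adjusted p = 0.0396). This call ended without young 1, young 2, young 3, old 2 or old 3, with adjusted p values up to 0.166. The other 4 genes of the group did not pass. Esam, an adhesion molecule of endothelial tight junctions, had 141, 152 and 159.7 CPM in young and 115, 139 and 139.9 CPM in old hearts (log2 fold change −0.20 ± 0.13, edgeR adjusted p = 0.321). Its ages did not overlap, although the gap between young 1 and old 3 was small. Cldn5, the main claudin of endothelial tight junctions, had 88.2, 108 and 112 CPM in young and 39.3, 130.4 and 73.0 CPM in old hearts. The highest old value was 3.32 times the lowest, so the old hearts spanned the young ones (−0.34 ± 0.34, edgeR adjusted p = 0.519). Log2 fold changes were −0.18 ± 0.13 for Emcn, a sialomucin of venous and capillary endothelium, and 0.31 ± 0.21 for Icam2, an adhesion molecule present on resting endothelium (edgeR adjusted p = 0.387 and 0.325). Without old 1 Icam2 passed as higher in old hearts, at 0.50 (edgeR adjusted p = 0.0206). That fit called 37.9% of all genes, against 15.1% in the main comparison. The median over the 7 genes was −0.34.

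**Figure D3:**
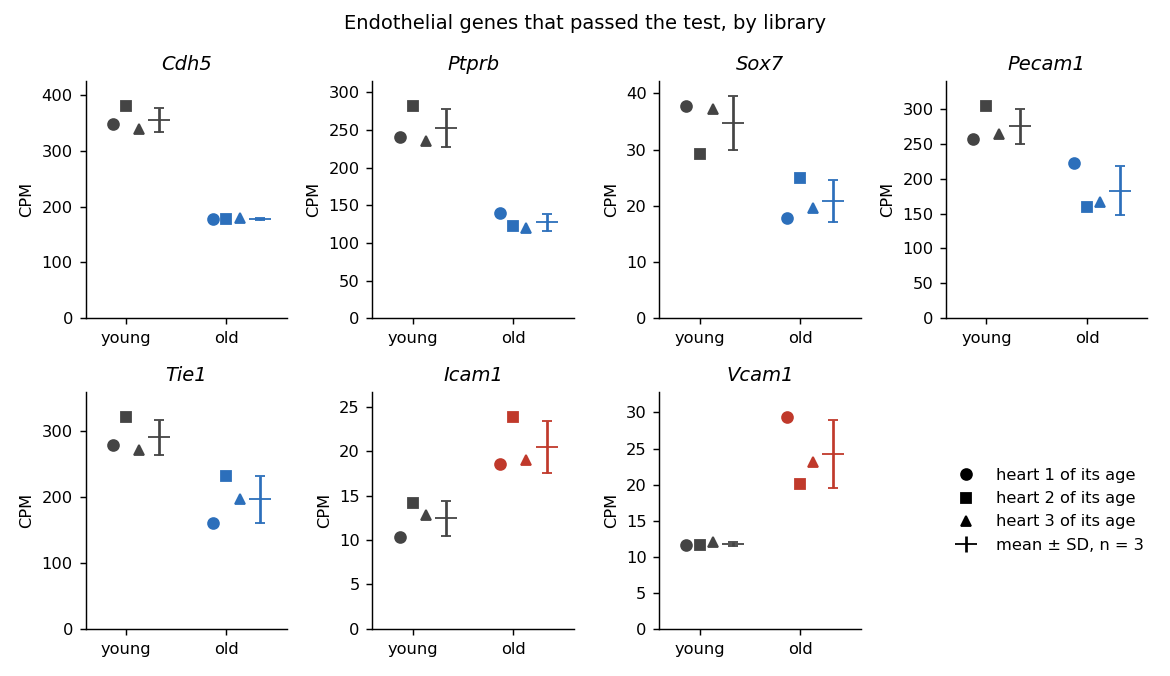
CPM in each library (y axis, from 0) of the 7 genes that passed the test, in young (black) and old hearts (blue where lower, red where higher). Marker shapes give the number of the heart within its age, and the bars give mean ± SD (n = 3). Old and young values do not overlap in any of the 7 panels, and Cdh5 has the narrowest old values.

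Of the angiopoietin and Tie genes the receptor Tie1 fell and the other 3 did not pass. Tie1 (ENSMUSG00000033191, chr4:118471191-118490061), an orphan receptor that pairs with TIE2, measured 278, 320.3 and 270.3 CPM in young and 160.1, 231 and 197 CPM in old hearts. All old hearts lay below the young ones, with old 2 nearest to them. The log2 fold change was −0.56 ± 0.16 (edgeR adjusted p = 0.0450). The call ended without young 1, young 2, young 3 or old 3, and on the FPKM scale, with adjusted p values up to 0.181. Tek (ENSMUSG00000006386, chr4:94739289-94874976), which encodes TIE2 itself, measured 107, 99.9 and 98.4 CPM in young and 77.0, 78.3 and 78.9 CPM in old hearts. The ages were clearly apart and the spread was small, yet Tek narrowly missed the threshold at −0.38 ± 0.12 (edgeR adjusted p = 0.0549). It passed with DESeq2, with upper-quartile scaling, with length and GC trends removed and without old 1 (edgeR adjusted p = 0.0144).

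Both ligands of TIE2 were scarce. Angpt1, made largely by mural and other perivascular cells, had 6.87, 7.80 and 10.8 CPM in young and 10.4, 8.09 and 8.39 CPM in old hearts (0.0815 ± 0.22, edgeR adjusted p = 0.823). Angpt2, stored in and released from endothelial cells, had 4.12, 2.71 and 4.76 CPM in young and 4.04, 8.65 and 4.60 CPM in old hearts (0.57 ± 0.34, edgeR adjusted p = 0.268). Old 2 alone exceeded the young range of Angpt2. The log2 ratio of Angpt2 to Angpt1 was −0.74, −1.52 and −1.17 in young and −1.36, 0.10 and −0.87 in old hearts, so the ages overlapped. Its mean was −1.14 ± 0.39 in young and −0.71 ± 0.74 in old hearts (SD, n = 3). The difference of 0.43 had an exact two-sided permutation p of 0.5, where 3 against 3 allow no p under 0.1. Without old 2 it was 0.029 and without old 1 it was 0.76. Without young 2 it was 0.24.

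To show the start of the gene for TIE2 and of the leukocyte adhesion gene described further on, the 250 bases before their RefSeq starts are printed for Tek (chr4:94739039-94739288) and Icam1 (chr9:21015690-21015939), both on the plus strand of GRCm38.p6 and both free of annotated exons. RefSeq promoter entries were found for 13 of the 34 genes. Capitals mark matches on either strand to 2 motifs, GGANNTTCC as in NF-kappaB sites and TTCNNNGAA as in STAT sites, in Icam1, and to the SOX core ACAAT in Tek.
Tek: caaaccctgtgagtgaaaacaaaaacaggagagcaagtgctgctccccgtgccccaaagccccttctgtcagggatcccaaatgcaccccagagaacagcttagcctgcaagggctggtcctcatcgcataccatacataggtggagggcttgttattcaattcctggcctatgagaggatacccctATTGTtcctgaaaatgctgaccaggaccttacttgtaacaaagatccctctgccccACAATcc
Icam1: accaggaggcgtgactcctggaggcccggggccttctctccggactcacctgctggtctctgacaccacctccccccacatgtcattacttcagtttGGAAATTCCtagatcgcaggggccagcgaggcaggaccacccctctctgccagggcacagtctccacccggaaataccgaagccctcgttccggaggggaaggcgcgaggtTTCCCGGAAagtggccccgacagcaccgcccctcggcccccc
In the Tek window ACAAT lies 7 bases before the start and its reverse complement ATTGT 63 bases before it. The Icam1 window holds GGAAATTCC, which reads alike on both strands, 153 bases before the start and TTCCCGGAA 42 bases before it. Of 32851 windows of this length 27.66% held ACAAT, 3.586% held GGANNTTCC and 7.02% held TTCNNNGAA. The ETS-like hexamer AGGAAG, found in 29.48% of windows, was in neither printed window. Shorter or other forms of ETS sites were not searched for. The motifs were chosen with the Icam1 window in view, and a match describes letters, not a bound factor.

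Among the transcription factors Sox7 fell. Sox7 (ENSMUSG00000063060, chr14:63943673-63950732), a SoxF factor of endothelial development, measured 37.7, 29.2 and 37.3 CPM in young and 17.8, 25.0 and 19.5 CPM in old hearts. The ages did not overlap, and young 2 and old 2 stood nearest to each other. Its log2 fold change was −0.74 ± 0.17 (edgeR adjusted p = 0.0211). Without young 1, young 3 or old 3 the call ended, with adjusted p values up to 0.0960. The other SoxF genes did not pass and their values differed in sign. Sox17, an arterial SoxF factor, had 46.1, 57.5 and 49.9 CPM in young and 42.2, 75.7 and 83.3 CPM in old hearts, where old 1 was below the young range and the other two above it (0.39 ± 0.23, edgeR adjusted p = 0.270). It passed without old 1, at 0.63 (edgeR adjusted p = 0.00234), in a fit that called 37.9% of all genes. Sox18, the most abundant of the group per length, had 105, 73.7 and 83.6 CPM in young and 44.6, 76.6 and 78.2 CPM in old hearts (−0.40 ± 0.22, edgeR adjusted p = 0.247). Its ages overlapped and old 1 was lowest. Erg had 42.6, 41.5 and 38.5 CPM in young and 36.0, 30.6 and 36.4 CPM in old hearts (−0.25 ± 0.13, edgeR adjusted p = 0.207), with no overlap between the ages. Fli1, the second ETS factor, was at −0.12 ± 0.18 (edgeR adjusted p = 0.682).

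None of the 4 genes of capillary transport and lipid handling passed (0 at an unadjusted p under 0.05 in edgeR), and the median of their log2 fold changes was 0.041. Fabp4 (ENSMUSG00000062515, chr3:10204088-10208576), a fatty acid carrier inside capillary endothelial cells, had 1298, 1608 and 1280.0 CPM in young and 1316, 1387 and 1329 CPM in old hearts. The old values fell inside the young range (−0.0539 ± 0.14, edgeR adjusted p = 0.819). Fabp4 is also a gene of fat cells. The 7 adipocyte markers together summed to 1.17 to 7.72 CPM in young and 2.45 to 7.29 CPM in old hearts. Cfd ran from 0.137 to 4.06 CPM in young and from 0.284 to 3.25 CPM in old hearts, and Adig from 0.965 to 1.63 CPM over all libraries. Adipoq was at 0, 0.339 and 0.966 CPM in young and 0.490, 0.284 and 0.148 CPM in old hearts, where 3 counts in a library equal 0.193 to 0.220 CPM before TMM scaling. The part of fat cells in the level of Fabp4 was not tested. Gpihbp1, which carries lipoprotein lipase to the capillary lumen, had 178, 256 and 193 CPM in young and 211, 235 and 244 CPM in old hearts (0.14 ± 0.16, edgeR adjusted p = 0.593). Rgcc, a marker of capillary endothelium, had 0.31 ± 0.16 (edgeR adjusted p = 0.195), with old 2 inside the young range and the other two above it. Plvap, which forms the diaphragms of fenestrae and caveolae, was low, with 6.05, 7.60 and 11.3 CPM in young and 6.68, 2.55 and 6.46 CPM in old hearts (−0.66 ± 0.36, edgeR adjusted p = 0.230).

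The 3 secreted and matrix genes did not pass (1 at an unadjusted p under 0.05 in edgeR). Egfl7, a secreted factor that endothelial cells place in the vessel matrix, had 259, 206 and 239.7 CPM in young and 224, 368 and 322 CPM in old hearts. Old 1 fell inside the young range and the other two lay above it (0.37 ± 0.19, edgeR adjusted p = 0.204). Mmrn2, an endothelial matrix protein, had 58.7, 63.8 and 62.7 CPM in young and 48.5, 51.1 and 38.9 CPM in old hearts. Its ages did not overlap and it narrowly missed the threshold (−0.42 ± 0.14, edgeR adjusted p = 0.0678), passing without old 1 (edgeR adjusted p = 0.0176). Egfl7, whose log2 fold change was positive, passed without old 1 as higher in old hearts, at 0.55 (edgeR adjusted p = 0.00667). Without old 1, 37.9% of all genes were called. Vwf, the clotting protein von Willebrand factor, had −0.24 ± 0.17 (edgeR adjusted p = 0.356).

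The 6 genes of endothelial signalling had a median log2 fold change of 0.32, and 5 of them were positive, but none passed (0 at an unadjusted p under 0.05 in edgeR). Eng (ENSMUSG00000026814, chr2:32646595-32682669), a co-receptor for BMP9, had 299, 329 and 296 CPM in young and 259.8, 488 and 379 CPM in old hearts. Old 1 was below the young range and the other two above it (0.29 ± 0.21, edgeR adjusted p = 0.366). Nos3, the endothelial nitric oxide synthase, had 65.3, 70.0 and 63.0 CPM in young and 53.6, 120.4 and 96.1 CPM in old hearts, the same order of libraries (0.45 ± 0.25, edgeR adjusted p = 0.242). The guidance receptor gene Robo4 (0.35 ± 0.21), the ALK1 receptor gene Acvrl1 (0.35 ± 0.17) and Rasip1 (0.29 ± 0.26), which encodes a partner of RAP1 needed for vessel lumens, had adjusted p values of 0.265, 0.194 and 0.474 in edgeR's test. Acvrl1 differed in order, since old 1 was inside its young range. S1pr1, a receptor for sphingosine 1-phosphate that steadies junctions, was at −0.22 ± 0.14 (edgeR adjusted p = 0.305). Without old 1 the 5 positive genes all passed, in a fit that called 37.9% of all genes, against 15.1% in the main comparison. Their edgeR adjusted p values were 0.00142 for Nos3, 0.00429 for Acvrl1, 0.00462 for Robo4, 0.00897 for Rasip1 and 0.0127 for Eng. Without old 2, on the other side, Rasip1 turned to −0.037.

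Both leukocyte adhesion genes rose. Vcam1 (ENSMUSG00000027962, chr3:116109949-116129688), which encodes a ligand of leukocyte integrins, measured 11.7, 11.6 and 12.0 CPM in young and 29.4, 20.1 and 23.2 CPM in old hearts. Young hearts were nearly identical and each old heart was well above them. The mean rose from 11.8 ± 0.232 to 24.2 ± 4.73 CPM (SD, n = 3 per age), a log2 fold change of 1.04 ± 0.17 (edgeR adjusted p = 0.00582). The call was kept in all 20 alternatives, with an adjusted p of at most 0.0407. Icam1 (ENSMUSG00000037405, chr9:21015985-21028817), which encodes another integrin ligand, measured 10.3, 14.2 and 12.9 CPM in young and 18.6, 23.8 and 19.0 CPM in old hearts. The lowest old value exceeded the highest young one, with a log2 fold change of 0.72 ± 0.17 (edgeR adjusted p = 0.0261). Without young 1, young 2, young 3, old 2 or old 3 the call ended, with adjusted p values up to 0.118. An antisense gene, Gm47079, covers 11.7% of the exon bases of Icam1, and whether reads were counted by strand is not given in the sources used here.

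Summed markers of leukocytes, which can also carry Icam1 and Vcam1 RNA, were higher with both genes. The 10 leukocyte markers summed to 190.2 to 228 CPM in young and 363 to 402 CPM in old hearts, 6 of 10 were higher and 0 lower, and none was at 0 in all libraries. The largest rises in CPM were those of C1qa (56.6 ± 4.69 to 132 ± 8.30) and C1qb (45.7 ± 7.22 to 85.9 ± 14.6). The 4 markers that did not pass were Cd14, Cd68, Csf1r and Adgre1, with log2 fold changes of 0.58, 0.46, 0.098 and −0.11. Ptprc, which encodes the pan-leukocyte protein CD45, rose from 9.47 ± 0.443 to 22.7 ± 3.64 CPM (1.26 ± 0.16, edgeR adjusted p = 0.00280). The part of leukocytes in the rise of Icam1 and Vcam1 was not tested.

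None of the 3 Notch genes passed (2 at an unadjusted p under 0.05 in edgeR), and their values pointed both ways. Notch1, the receptor, had 64.8, 67.6 and 60.6 CPM in young and 34.4, 52.8 and 46.7 CPM in old hearts, with no overlap (−0.53 ± 0.16, edgeR adjusted p = 0.0582). Hey1 (ENSMUSG00000040289, chr3:8663359-8667256), a transcriptional target of Notch in arterial endothelium, had 18.2, 18.4 and 17.1 CPM in young and 20.5, 34.7 and 27.8 CPM in old hearts. All old values were above the young ones, old 1 only slightly (0.63 ± 0.19, edgeR adjusted p = 0.0522). Dll4, the endothelial Notch ligand and the most abundant of the 3 per length, had 31.7, 30.8 and 32.3 CPM in young and 30.9, 40.9 and 34.4 CPM in old hearts (0.16 ± 0.14, edgeR adjusted p = 0.445). Notch1 and Hey1 both passed in DESeq2 (adjusted p = 0.0347 and 0.0371), with no filter on low counts and without old 1 (edgeR adjusted p = 0.0199 and 0.00120). Notch1 also passed without old 2 (edgeR adjusted p = 0.0360).

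Cdh5 and Pecam1 are often used as a measure of endothelial content, so the other 32 genes were set against their mean log2 CPM in the same library. That mean was 8.22, 8.41 and 8.23 in young and 7.63, 7.39 and 7.44 in old hearts, a difference of −0.80. Relative to it, 25 of 32 genes (78.1%) had all old values above all young ones, Ptprb had them below, and 6 overlapped. Of all genes tested 73.7% were above, 0.874% below and 74.5% apart in either direction, so the share of the 32 genes was near that of all genes. The overlapping genes were Cldn5, Tie1, Sox7, Sox18, Plvap and Notch1. Ptprb fell slightly more than the pair, by 0.18 log2 units, while Vcam1 stood 1.82, Icam1 1.52 and Hey1 1.39 log2 units higher against it.

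The old libraries were ordered alike for many of the 34 genes. Old 1 was the lowest of the old libraries for 22 genes (64.7%), against 37.4% of all genes tested, and old 2 the highest for 19 (55.9%), against 33.3%. The order moved with base composition. Over the 34 genes, the deviation of log2 CPM in old 1 from the mean of the old libraries had a Pearson r of −0.53 (Spearman rho −0.53) with the GC content of the longest transcript, which lay between 39.3% and 63.6%. For old 2 it was 0.30 (rho 0.47) and for old 3 it was 0.51 (rho 0.57). These are descriptions across genes that share libraries, and the 3 deviations of a gene sum to 0. Over 14315 genes r was −0.25, 0.26 and 0.015. In young libraries the 34 genes had r of −0.13, 0.041 and 0.079. The log2 fold change itself had a Pearson r of −0.059 (rho −0.0029) with GC content over the 34 genes. The 17 genes of higher GC (53.7% to 63.6%) had a median log2 fold change of 0.29 and a median deviation of −0.39 in old 1. The 17 of lower GC (39.3% to 53.6%) had −0.18 and −0.000256. With length and GC trends removed from each library, 2 genes of the list were higher and 8 lower, with Tek, Mmrn2 and Notch1 added. Over all genes that removal gave 1201 higher and 1364 lower calls (46.8% higher, against 57.8% in the main comparison). Upper-quartile scaling, which moved no direction in the list, gave the same 8 lower genes of the list. Over all genes it gave 1130 higher and 1082 lower calls, against 1257 and 917 in the main comparison. Both settings moved the median log2 fold change of all genes below 0, to −0.030 with the trends removed and −0.026 with upper-quartile scaling.

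**Figure D4:**
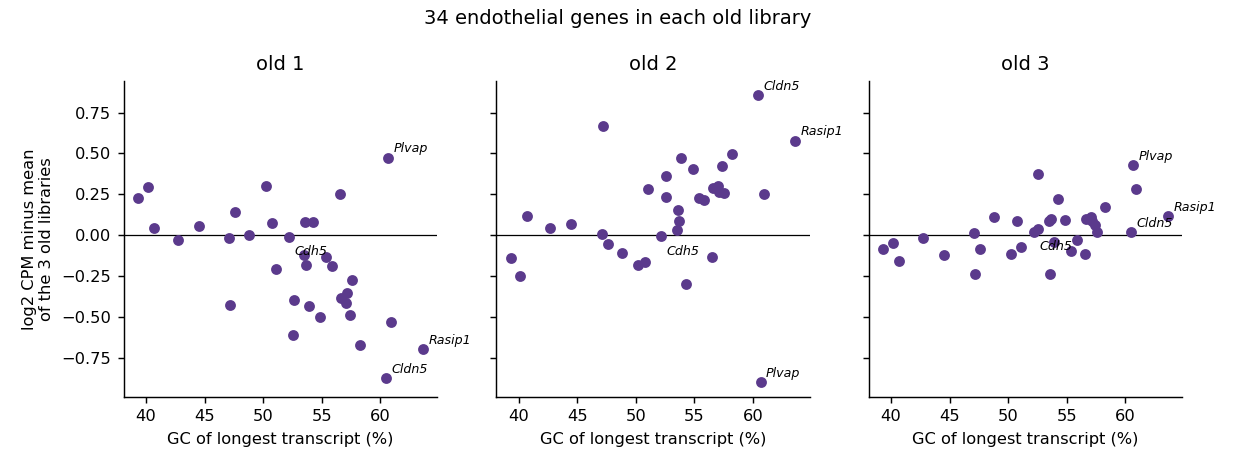
Deviation of log2 CPM from the mean of the 3 old libraries (y axis) against the GC content of the longest transcript in percent (x axis), for the 34 genes in old 1, old 2 and old 3. Cldn5 and Rasip1, at the high end of GC, lie low in old 1 and high in old 2, Plvap lies the other way, and Cdh5 lies near 0 in each panel.

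Leaving out old 1 changed the list most, to 11 genes higher and 8 lower, while 37.9% of all genes were then called. The 12 genes added were Icam2, Tek, Sox17, Egfl7, Mmrn2, Nos3, Rasip1, Robo4, Eng, Acvrl1, Notch1 and Hey1. With another library left out the counts were 1 higher and 2 lower without young 1, young 3 or old 3, when 3.63%, 4.18% and 6.23% of all genes were called. They were 1 higher and 3 lower without young 2 (3.65% of all genes) and 1 higher and 5 lower without old 2 (10.4%). Cdh5, Ptprb and Vcam1 were called in each of these fits.

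Related genes outside the list were read from the same test, in which 8.72% of all genes were higher and 6.36% lower. These related lists were chosen with earlier results of these data known, so their counts are descriptions. Of 35 other endothelial genes 10 were lower and 0 higher, with a median log2 fold change of −0.28. The lowest p values belonged to Aplnr (−2.48), the apelin receptor, and to 3 further genes. Tspan18, a tetraspanin of endothelial cells, fell from 24.4 ± 1.44 to 10.8 ± 0.719 CPM (−1.18 ± 0.14, edgeR adjusted p = 0.00189). Cd93, a surface glycoprotein that binds MMRN2, fell from 151 ± 6.66 to 76.8 ± 3.01 CPM (−0.97 ± 0.12, edgeR adjusted p = 0.00235). Ets1, an ETS factor, fell from 103 ± 7.43 to 54.6 ± 7.64 CPM (−0.92 ± 0.14, edgeR adjusted p = 0.00487). These 4 calls were kept when any single library was left out. The count of 10 became 5 without young 1, young 2, young 3 or old 3, 6 without old 2, and 16 without old 1, of which 2 were higher. Over all genes these fits called from 3.63% (without young 1) to 37.9% (without old 1).

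Among 21 tested junction partners of 23 listed, 7 were lower and 0 higher (median −0.26). Jup, which encodes plakoglobin, a catenin that can bind VE-cadherin, fell from 264 ± 10.0 to 151 ± 12.6 CPM (−0.81 ± 0.13, edgeR adjusted p = 0.00544). Ctnnb1, the gene of β-catenin, had 358, 343 and 345 CPM in young and 234, 124 and 149 CPM in old hearts (−1.05 ± 0.22, edgeR adjusted p = 0.0141). The junctional adhesion molecule gene Jam2 (−0.61 ± 0.12, edgeR adjusted p = 0.0115) and the phosphatase gene Ptprm (−0.57 ± 0.14, edgeR adjusted p = 0.0251) fell as well. Jup, Ctnnb1 and several other junction genes are also expressed by cardiomyocytes, of whose 9 markers 4 were lower and 1 higher, and the part of those cells was not tested. The count of 7 became 1 without young 1, young 2 or young 3, 4 without old 2, and 2 without old 3, and without old 1 the calls were 2 higher and 10 lower. Of all genes these fits called from 3.63% (without young 1) to 37.9% (without old 1). Jup kept its call throughout. The calls of Jam2 (without any young library), Ctnnb1 (also without old 3) and Ptprm (also without old 2 or old 3) ended, with adjusted p values up to 0.0679, 0.0645 and 0.105.

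**Figure D5:**
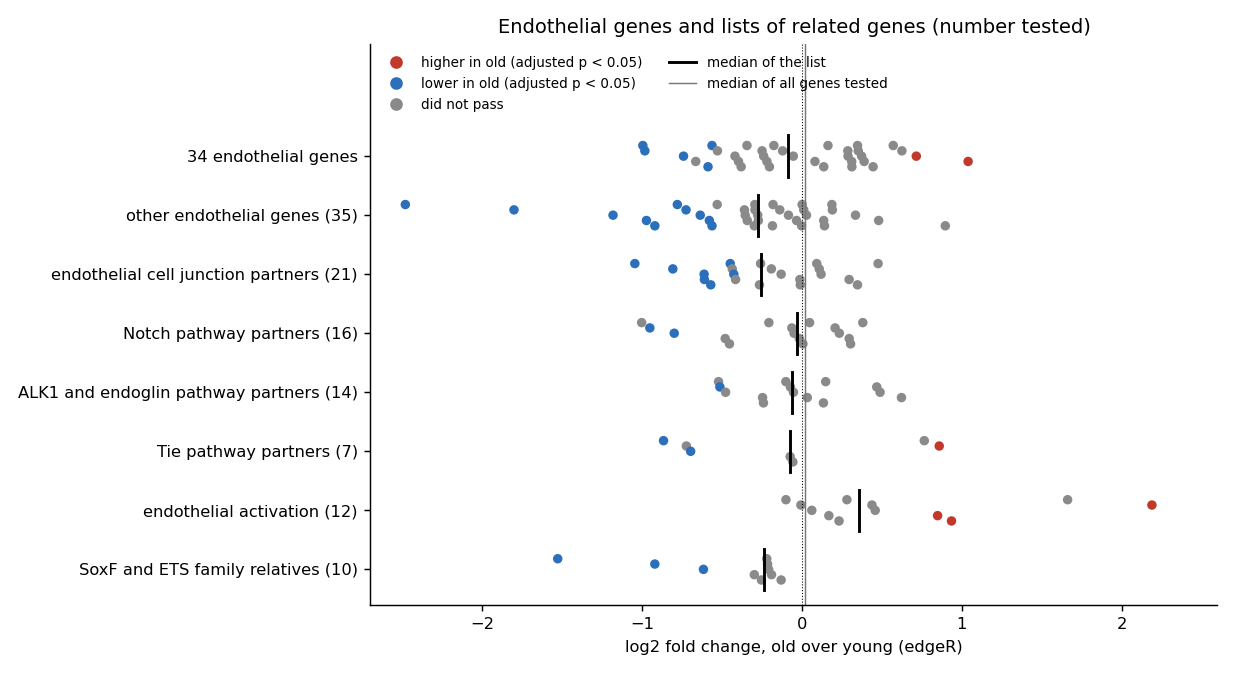
Log2 fold change of old over young hearts (x axis, edgeR) for the 34 genes and for each tested gene of 7 related lists (y axis, number tested in brackets). Black bars are list medians, the grey line is the median of all genes tested (0.017), and coloured points passed an adjusted p of 0.05. Called genes lie to the left in the lists of other endothelial genes, junction partners, Notch partners and SoxF and ETS relatives, and to the right in the list of endothelial activation.

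The smaller lists gave few calls. Of 16 Notch partners 2 were lower (median −0.033): Heyl, a Notch target gene (−0.80 ± 0.14, edgeR adjusted p = 0.00866), and Lfng, whose enzyme glycosylates Notch (−0.95 ± 0.20, edgeR adjusted p = 0.0148). Heyl lost its call without young 1 and Lfng without young 1 or young 2 (adjusted p up to 0.0527 and 0.0747). The number called was 0 without young 1 and 1 without young 2, and without old 1 it was 4 higher and 5 lower. Over all genes these fits called 3.63%, 3.65% and 37.9%. Of 14 tested partners of ALK1 and endoglin (16 listed) Smad5 was lower (median −0.063), at −0.51 ± 0.14 (edgeR adjusted p = 0.0397). That call ended without any library other than old 1, without which 2 of these genes were higher and 3 lower. Of 7 tested Tie pathway partners (8 listed) the adaptor gene Grb14 (−0.87 ± 0.13, edgeR adjusted p = 0.00472) and the kinase gene Akt1 (−0.70 ± 0.13, edgeR adjusted p = 0.0116) were lower and Tnip2 (0.86 ± 0.14, edgeR adjusted p = 0.00556), whose protein ABIN-2 restrains NF-kappaB, was higher (median −0.074). Akt1 lost its call without any young library (adjusted p up to 0.0621), and without old 1 the calls were 2 higher and 3 lower.

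Chemokine genes were the called ones among genes of endothelial activation. Of 12 tested (15 listed) 3 were higher and 0 lower, with a median of 0.36. Cx3cl1, the membrane-bound chemokine fractalkine, had 8.80, 8.61 and 9.08 CPM in young and 15.9, 18.2 and 16.6 CPM in old hearts (0.94 ± 0.15, edgeR adjusted p = 0.00555). Ccl2, a monocyte chemokine, had 1.03, 0.814 and 0.837 CPM in young and 7.29, 2.55 and 2.37 CPM in old hearts, with old 1 highest (2.19 ± 0.49, edgeR adjusted p = 0.0188). Without old 1 its log2 fold change was 1.45, and without any young library the call ended (adjusted p up to 0.0809). Cxcl9, an interferon-induced chemokine, was at 0.85 ± 0.25 (edgeR adjusted p = 0.0484) and lost its call in 11 of 20 alternatives. These were upper-quartile scaling, limma on counts and all 3 limma fits on FPKM, removal of length and GC trends, and leaving out any library other than old 1 (adjusted p up to 0.172). Which cells of the heart, endothelial cells or leukocytes among them, carried the RNA of these chemokine genes was not tested. The selectin genes Sele and Selp and the adhesion gene Madcam1 had too few counts to be tested. The count of 3 became 1 without any young library, and 2 without old 2 or old 3, and without old 1 the calls were 4 higher and 1 lower. Of all genes these fits called from 3.63% (without young 1) to 37.9% (without old 1). Of 10 relatives of the SoxF and ETS families 3 were lower and 0 higher (median −0.24), namely Ets1, Sox4 (−1.53 ± 0.28, edgeR adjusted p = 0.00858) and Elk3 (−0.62 ± 0.12, edgeR adjusted p = 0.0122). Sox4 lost its call without young 1 and Elk3 without young 2 or young 3, with adjusted p values up to 0.0533 and 0.0784, and the count was 2 without any young library and 4 without old 1.

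Markers of other cells in the heart, and of kinds of endothelium, were summed in each library. The capillary list of 7 genes, 3 of them among the 34, summed to 3509 to 4179 CPM in young and 3350.2 to 3762 CPM in old hearts, with 1 gene lower, Aplnr (−2.48). Most of this sum was Cd36 (mean 1688 CPM in young and 1534 CPM in old hearts) and Fabp4 (1395 and 1344 CPM), so it says little of the other genes. Arterial markers summed to 191 to 192 CPM in young and 165 to 188 CPM in old hearts, with Efnb2 lower among 7. Venous markers summed to 414 to 502 CPM in young and 356 to 506 CPM in old hearts, with Ephb4 lower and Vcam1 higher among 6. Lymphatic markers summed to 80.0 to 84.2 CPM in young and 92.4 to 109 CPM in old hearts and endocardial markers to 34.9 to 50.1 CPM in young and 25.0 to 59.0 CPM in old hearts, with no call among 6 and 4 tested genes. Mural markers summed to 1175 to 1408 CPM in young and 792 to 1217 CPM in old hearts, with Abcc9 and Kcnj8 lower among 9, and fibroblast markers to 2233 to 3002 CPM in young and 1694 to 3106 CPM in old hearts, with 1 of 9 lower. The remaining lists summed to 1.17 to 7.72 CPM in young and 2.45 to 7.29 CPM in old hearts (adipocyte, 2 tested, no call), 15.3 to 24.0 CPM in young and 19.9 to 42.2 CPM in old hearts (Schwann cell, 4 tested, no call), 6.24 to 9.90 CPM in young and 6.86 to 19.0 CPM in old hearts (mesothelium, 1 tested, no call) and 928 to 981 CPM in young and 455 to 1215 CPM in old hearts (erythroid, 1 of 5 lower). Hey1, Vwf, Vcam1 and Plvap stand in these lists and among the 34. No marker was at 0 in all libraries. Their part in the changes of the 34 genes was not tested.

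Exons of other genes overlap those of 11 of the 34 genes in GENCODE M21, which matters where counting ignored strand or shared reads. The largest shares were 25.2% of Nos3 (Gm15587, antisense), 20.4% of Rasip1 (Izumo1, same strand), 16.8% of Sox17 and 14.2% of Angpt1 (both antisense). No exon of another gene overlaps Cdh5, Ptprb, Pecam1, Tie1, Sox7 or Tek. For Vcam1 the overlap was 0.688%.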

How the data were processed

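Total RNA of hearts from 3 young and 3 old mice was sequenced. Per the submitters' processing notes, the authors used HISAT2, featureCounts, Subread and the genome build GRCm38.p6; tool versions, annotation and strand setting were not given in the sources used here. Deposited counts are whole reads per gene, for 44200 models. The 571 models without a name held 0.295% to 0.368% of the counts and were left out, and 27 names turned into dates were read by identifier. The authors' FPKM values, for 13170 genes, are scaled by gene length and depth.

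The 34 genes and the lists of related and marker genes were chosen with earlier results of these data known, so their counts are descriptions. Genes were filtered with filterByExpr, scaled by TMM and tested over 14413 genes with edgeR 4.0.16 (quasi-likelihood F test, Benjamini-Hochberg adjustment, threshold 0.05) in R 4.3.3. The SE is approximate, namely the size of the fitted log2 change over the square root of the F statistic. The biological coefficient of variation was 0.187. p-values measure the spread between 3 hearts per age. Log2 CPM used a prior count of 0.5. Positions, transcript length and GC came from GENCODE M21, and 5 list symbols were matched to older symbols by its identifiers. Promoter sequences came from RefSeq for GRCm38.p6.

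Named with the value in each library were the genes that passed, the most abundant gene of each role group by FPKM and further members; from each related list, up to 4 called genes with the smallest p. Alternatives were other scalings and filters, DESeq2 1.42.0, limma 3.58.1 on counts and on log2(FPKM + 1) or log2(FPKM + 0.1), leaving out each library, and blocking on the replicate number. Chosen after seeing the data were removal of length and GC trends, inclusion of unnamed models, protein-coding genes alone, and the related lists under every alternative. The fits were tested on simulated data.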

Additional observations from a re-analysis of the deposited data

How the results depend on the processing

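Over 20 alternatives for each of the 34 genes, 627 of the values kept their direction and side of the threshold, 27 passed in addition, 21 no longer passed and 5 changed sign. Those 5 were of genes that did not pass: Angpt1 (−0.053 without young 1, −0.045 without old 1 and up to 0.27 with other libraries left out), Fli1 (0.045 without young 1 and down to −0.33), Fabp4 (0.055 without young 2 and down to −0.13) and Rasip1 (−0.037 without old 2 and up to 0.56). The median log2 fold change of the 34 genes stayed between −0.16 and −0.038. Lower genes numbered 8 with upper-quartile factors and 8 with length and GC trends removed. Lower calls over all genes then numbered 1082 and 1364, against 917 in the main comparison. With 1 library left out the counts of the list ranged from 1 to 11 higher and from 2 to 8 lower, while 3.63% to 37.9% of all genes were called. Genes apart relative to the mean of Cdh5 and Pecam1 numbered 26 to 30 of 32 with 1 library left out. With the mean of all 34 genes as the reference 14 of 34 were apart. The share of all genes is given only for the pair with no library left out (74.5%), so these counts have no background beside them. The difference in the log2 ratio of Angpt2 to Angpt1 was 0.40 on FPKM (exact permutation p = 0.6) and ranged from 0.029 to 0.76 with 1 library left out.

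Notch partners called numbered 5 with upper-quartile factors, 4 with no filter on low counts, 4 with DESeq2, 5 with length and GC trends removed and 4 with that removal and the replicate block. In the same order, these fits called 15.3%, 11.9%, 16.9%, 17.9% and 14.8% of all genes. ALK1 and endoglin partners called by limma on FPKM numbered 0 with pseudocounts of 1 and 0.1 and with a mean FPKM of at least 1, and edgeR with the replicate block called 0 of them; the edgeR comparison gave 3 at an unadjusted p under 0.05. With 1 library left out the called genes ranged from 5 to 16 among other endothelial genes, 1 to 12 among junction partners, 0 to 9 among Notch partners, 0 to 5 among ALK1 and endoglin partners, 2 to 5 among Tie partners, 1 to 5 among activation genes and 2 to 4 among SoxF and ETS relatives. Over all genes the share called in these fits ran from 3.63% without young 1 to 37.9% without old 1. On the scale of log2(FPKM + 1), which shrinks changes of low genes, values were −0.78 for Tspan18, −0.57 for Sox4 and 1.21 for Ccl2.

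Same-numbered libraries did not move together: their deviations had correlations of −0.085, −0.068 and 0.025. Such correlations cannot decide whether hearts were matched by number. With the replicate block 2 genes of the list were higher and 4 lower, and Pecam1 missed the threshold (edgeR adjusted p = 0.0597); over all genes 1038 were higher and 736 lower. The causes of these changes were not tested. Angpt1, Angpt2 and Plvap, at a few CPM, are the genes of the list where depth limits precision most.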
